A study of Homo sapiens with 24 samples.

Results

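The response of A2780 cells to low oxygen was compared between 48 hr and 6 days of culture, gene by gene. A2780 is an established cell line derived from a human ovarian carcinoma, labelled epithelial. The quantity described is an interaction: the difference between hypoxia and normoxia at 6 days, minus the same difference at 48 hr, on the log2(RPKM + 0.5) scale. RPKM counts reads relative to transcript length and library size. A positive interaction means that hypoxic cells stood further above, or less far below, normoxic cells at 6 days than at 48 hr. The comparison uses 8 of the 12 total RNA libraries of the series, which has 24 samples in all: libraries 5 and 6 (normoxia, 48 hr), 7 and 8 (hypoxia, 48 hr), 9 and 10 (normoxia, 6 days) and 11 and 12 (hypoxia, 6 days). Hypoxia was 1% oxygen, and all groups were the same unmodified line grown in serum-supplemented RPMI 1640 medium with gentamicin and carbon dioxide. Whether both libraries of a group were grown separately is not in the labels, and the spread behind every p-value may thus be technical.

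Cells sense oxygen through prolyl hydroxylases of the EGLN family, which mark the alpha subunits of hypoxia-inducible factor (HIF) for destruction while oxygen is present. When oxygen is short, HIF accumulates, binds a short core sequence near its target genes and raises glycolytic enzymes, glucose transporters, angiogenic hormones and mitophagy receptors. Other stress pathways react to long culture as well as to oxygen. ATF4, a transcription factor made when amino acids run short or the endoplasmic reticulum is stressed, raises genes of amino acid supply. SREBP factors control sterol and fatty acid synthesis, several steps of which use molecular oxygen, and HSF1 controls the heat shock chaperones.

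Of 11933 genes tested, 1276 (10.7%) passed the interaction test at an adjusted p under 0.05 with limma and Benjamini-Hochberg adjustment. The effect of hypoxia moved upward for 642 genes (5.38%) and downward for 634 genes (5.31%), and the median interaction over all genes tested was 0.03. Changes of at least 1 log2 unit were called for 102 genes upward and 97 downward. Hypoxia effects were called higher for 9.24% of genes and lower for 2.89% at 48 hr, and higher for 23.9% and lower for 18.3% at 6 days. The cultures also changed with time in both oxygen conditions. From 48 hr to 6 days, 27% of genes rose and 32.4% fell in normoxia, while 30.4% rose and 32.4% fell in hypoxia. Leaving out any 1 of the 8 libraries lowered the interaction calls to between 160 and 303 upward and between 205 and 346 downward, with both lowest counts when library 8 was left out. Genes entered the test by reaching 1 RPKM in 2 of the 12 libraries. Of the 642 upward calls, 100 reached it in the 6-day hypoxic libraries alone and so were tested only through the group in which they were high. The same limit holds for 13 downward calls that reached it in the 6-day normoxic libraries alone. It also holds for 1 downward call that reached it in the 48 hr hypoxic libraries alone.

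The upward and downward calls arose from several patterns of level. Among the 642 upward calls, 399 genes had a positive effect at both times that was larger at 6 days, and 156 of these passed the test at both times. A further 234 had effects of opposite sign that did not both pass, 8 had called effects of opposite sign, and 1 had a negative effect that was smaller at 6 days. Among the 634 downward calls, 222 had a negative effect at both times that was larger at 6 days, 330 had opposite signs without both passing, 42 had called effects of opposite sign, and 40 had a positive effect that was smaller at 6 days. Viewed by culture arm, 268 upward calls had a called change with time in hypoxia alone and 141 in normoxia alone. Downward calls had 176 genes with a called change in hypoxia alone and 155 in normoxia alone. Another 185 upward and 240 downward genes changed in the same direction in both arms by different amounts. Each gene described in full below is therefore given with its level in both arms.

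**Figure D1:**
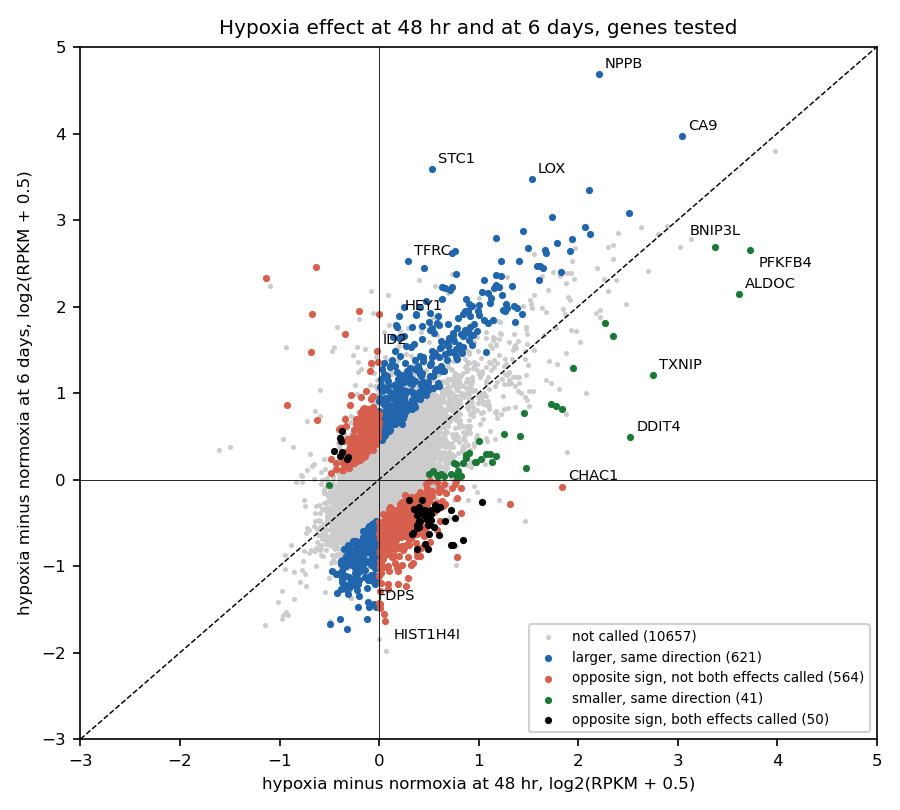
Hypoxia minus normoxia at 48 hr (horizontal axis) against the same difference at 6 days (vertical axis), both in log2(RPKM + 0.5), with 1 point per gene tested and the dashed line marking equal effects. The 1276 called genes lie off the dashed line, with STC1, NPPB, LOX and TFRC above it and DDIT4, TXNIP, CHAC1, ALDOC and PFKFB4 below it.

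Of 71 listed HIF targets tested, 21 were called upward (29.6%) and 8 downward (11.3%), against 5.38% and 5.31% of all genes, and 42 were not called. Their median effect was 1.43 at 48 hr and 1.92 at 6 days, with a median interaction of 0.28. At 48 hr, 64 of the 71 were called higher in hypoxia, and at 6 days 67 were. Of the 21 called upward, STC1, NDRG1, RORA and BHLHE41 reached 1 RPKM in the 6-day hypoxic libraries alone. The upward share carries that limit. With any 1 library left out, the upward count was 11 to 14 and the downward count 5 to 7.

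The largest upward interaction among the genes named by the selection rule was that of STC1, which encodes the secreted glycoprotein hormone stanniocalcin 1. At 48 hr STC1 was at 0.0380 and 0.0167 RPKM in normoxia and 0.310 and 0.219 RPKM in hypoxia. At 6 days it was at 0.0173 and 0.0255 RPKM in normoxia and 5.73 and 5.78 RPKM in hypoxia. Only the 6-day hypoxic libraries stood above 1 RPKM, and the interaction was 3.05 ± 0.17 (SE, limma adjusted p = 1.65e-05). STC1 was thus among the genes tested only because of the group in which it was high, as were NPR3 and NDRG1, so their adjusted p-values carry that limit. NPPB, the gene of brain natriuretic peptide, was at 0.0703 and 0 RPKM in normoxia and 2.42 and 1.58 RPKM in hypoxia at 48 hr. At 6 days NPPB was listed at 0 and 0 RPKM in normoxia and 13.7 and 11.1 RPKM in hypoxia. The hypoxic libraries were separate from the normoxic ones at both times and further apart at 6 days, with an interaction of 2.48 ± 0.24 (limma adjusted p = 0.000592). Because normoxic levels of STC1 and NPPB were near 0, the size of these log2 values depends on the pseudocount of 0.5: over all alternatives the interaction ranged from 2.43 to 4.08 for STC1 and from 2.22 to 2.98 for NPPB. NPR3, the clearance receptor for natriuretic peptides, had an interaction of 1.99 ± 0.20 (limma adjusted p = 0.000827), reaching 3.78 and 4.07 RPKM in hypoxia at 6 days from 0.426 RPKM or less in each of the other 6 libraries.

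LOX encodes lysyl oxidase, which cross-links collagen and elastin. LOX was at 0.223 and 0.228 RPKM in normoxia and 1.82 and 1.40 RPKM in hypoxia at 48 hr. After 6 days it was at 0.402 and 0.507 RPKM in normoxia and 10.5 and 9.70 RPKM in hypoxia. It rose in both arms, by 0.39 in normoxia and by 2.33 in hypoxia on the log2 scale, and the interaction was 1.94 ± 0.18 (limma adjusted p = 0.000419). NDRG1, a widely used hypoxia marker, moved likewise from 0.493 and 0.487 RPKM in hypoxia at 48 hr to 4.30 and 4.45 RPKM at 6 days. Its normoxic libraries stayed between 0.0717 and 0.321 RPKM at both times, and its interaction was 1.89 ± 0.17 (limma adjusted p = 0.000419). Collagen prolyl hydroxylase subunits P4HA1 and P4HA2 and the collagen gene COL6A1 were also called upward, so 4 of 23 genes of collagen modification and matrix were called upward (17.4%, against 5.38% of all genes) and 1, LEPREL1, downward. Without any 1 library the upward count was 2 to 3. COL6A1 was at 0.709 and 0.768 RPKM in normoxia and 1.78 and 2.20 RPKM in hypoxia at 48 hr, then at 1.26 and 1.27 RPKM and at 6.68 and 6.61 RPKM at 6 days, with an interaction of 1.01 ± 0.16 (limma adjusted p = 0.0046). The calls of P4HA1 and P4HA2 were lost under 9 and 8 alternatives, with adjusted p up to 0.132 and 0.112.

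In the glycogen list 4 of 19 tested genes were called upward by limma (21.1%, against 5.38% of all genes) and 0 downward (1 at an unadjusted p under 0.05), with 2 to 3 upward when any 1 library was left out. PPP1R3C, which brings protein phosphatase 1 to glycogen, was at 1.89 and 1.49 RPKM in normoxia and 9.61 and 8.26 RPKM in hypoxia at 48 hr. By 6 days the normoxic libraries were at 2.63 and 3.47 RPKM and the hypoxic ones at 36.9 and 33.9 RPKM. All 4 hypoxic values exceeded all 4 normoxic ones, and the interaction was 1.23 ± 0.19 (limma adjusted p = 0.0043). GBE1, the glycogen branching enzyme, had an interaction of 1.12 ± 0.17 (limma adjusted p = 0.0043) that came from both arms. Its normoxic level fell from 8.34 and 8.70 RPKM to 4.98 and 4.61 RPKM, while its hypoxic level rose from 25.4 and 21.5 RPKM to 29.8 and 30.1 RPKM. The other upward calls were PGM2L1, which reached 1 RPKM in the 6-day hypoxic libraries alone, and STBD1, whose call was lost under 9 alternatives, among them leaving out any 1 of the 8 libraries (adjusted p up to 0.12).

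ERO1L, ADM and CA9 were among the other upward HIF targets. ERO1L, an oxidase that takes electrons from protein disulfide isomerase, was at 16.1 and 14.9 RPKM in normoxia and 32.1 and 24.8 RPKM in hypoxia at 48 hr. Its normoxic libraries were at 15.3 and 16.0 RPKM at 6 days, near their 48 hr values, and its hypoxic libraries at 61.4 and 59.7 RPKM. The interaction of ERO1L was 1.07 ± 0.18 (limma adjusted p = 0.00582). Adrenomedullin (ADM), a vasodilator peptide, went from 15.0 and 12.6 RPKM in hypoxia at 48 hr to 27.8 and 25.4 RPKM at 6 days, while its 4 normoxic libraries lay between 2.68 and 3.49 RPKM. Its interaction was 0.86 ± 0.17 (limma adjusted p = 0.0115), and the call was lost without library 8 (adjusted p = 0.0578). For CA9, a cell surface carbonic anhydrase, hypoxic libraries were at 4.48 and 3.13 RPKM at 48 hr and 7.75 and 8.57 RPKM at 6 days, and no normoxic library exceeded 0.0638 RPKM. The CA9 interaction of 0.92 ± 0.21 (limma adjusted p = 0.0205) was lost with a pseudocount of 0.1 or without library 5, 6, 8, 9, 10 or 12, with adjusted p up to 0.246.

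Of 29 glycolysis genes, HK2 and PFKFB3 were called upward (6.90%, near the 5.38% of all genes) and ALDOC, PFKFB4, SLC2A3 and PDK1 downward (13.8%, against 5.31%). Without any 1 library 1 to 2 were upward and 2 to 3 downward, and the PDK1 call was lost without each of the 8 libraries (adjusted p up to 0.14). Hexokinase 2 (HK2) traps glucose in the cell, and it was at 35.3 and 33.3 RPKM in hypoxia at 48 hr and 34.2 and 34.0 RPKM at 6 days. The hypoxic level of HK2 had no called change with time (limma adjusted p = 0.946), whereas normoxic HK2 fell from 11 and 11.1 RPKM to 5.50 and 6.00 RPKM. Its interaction was 0.88 ± 0.14 (limma adjusted p = 0.00527). PFKFB4, an enzyme that sets the level of an activator of glycolysis, showed the opposite movement of the reference. Hypoxic PFKFB4 was at 21.3 and 19.8 RPKM at 48 hr and 20.8 and 20.7 RPKM at 6 days, and normoxic PFKFB4 rose from 1.07 and 1.10 RPKM to 2.80 and 2.98 RPKM. The effect on PFKFB4 therefore went from 3.73 to 2.65, an interaction of -1.08 ± 0.14 (limma adjusted p = 0.00196). Aldolase C (ALDOC) rose in both arms, from 2.02 and 1.84 RPKM to 7.80 and 9.58 RPKM in normoxia and from 31.2 and 27.5 RPKM to 41.8 and 38.1 RPKM in hypoxia. Its effect shrank from 3.62 to 2.14, with an interaction of -1.47 ± 0.19 (limma adjusted p = 0.00196).

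The same form, a rise in both arms that was steeper in normoxia, was seen for the hormone gene STC2, the mitophagy receptor BNIP3L and the glucose transporter SLC2A3. STC2 was at 2.71 and 2.85 RPKM in normoxia and 16.4 and 15.9 RPKM in hypoxia at 48 hr, against 10.7 and 11.6 RPKM and 37.3 and 35.1 RPKM at 6 days. Its interaction of -0.69 ± 0.13 (limma adjusted p = 0.00916) had the opposite sign to that of its paralogue STC1. BNIP3L rose from 2.90 and 2.77 RPKM to 12.4 and 11.7 RPKM in normoxia and from 36.4 and 31.8 RPKM to 79.0 and 81.0 RPKM in hypoxia, an interaction of -0.69 ± 0.14 (limma adjusted p = 0.0131). The 4 normoxic libraries of its relative BNIP3 lay between 22.4 and 25.8 RPKM, and BNIP3 rose from 146 and 133 RPKM to 225 and 197 RPKM in hypoxia. The BNIP3 interaction was 0.57 ± 0.15 (limma adjusted p = 0.0399). These smaller changes were less firm: the BNIP3 call was lost without any 1 of the 8 libraries (adjusted p up to 0.156), that of BNIP3L without library 6, 7 or 9 (up to 0.0588), and that of SLC2A3, with an interaction of -0.66, without library 7 or 12 (up to 0.0522).

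Several classical hypoxia genes had no called change between the times. VEGFA, the main angiogenic growth factor, had an effect of 0.88 at 48 hr and 1.16 at 6 days, with an interaction of 0.28 (95% interval -0.07 to 0.63, limma adjusted p = 0.278). The glucose transporter SLC2A1 had effects of 2.30 and 2.17 and an interaction of -0.13 (95% interval -0.44 to 0.18, limma adjusted p = 0.589). ANGPTL4, a secreted protein that blocks lipoprotein lipase, had effects of 3.14 and 2.78 and an interaction of -0.36 (limma adjusted p = 0.179). HIF1A itself had an interaction of -0.21 (limma adjusted p = 0.657), and neither of its hypoxia effects passed. Of 13 oxygen-sensing genes tested, EGLN1 was the single upward call (7.69%, near the 5.38% of all genes). In the same list 0 were called downward by limma (1 at an unadjusted p under 0.05). The EGLN1 interaction was 0.60 (limma adjusted p = 0.0462), and its call was lost under 11 alternatives. EGLN3 was below the minimum for testing at 0.0121 to 0.745 RPKM.

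**Figure D2:**
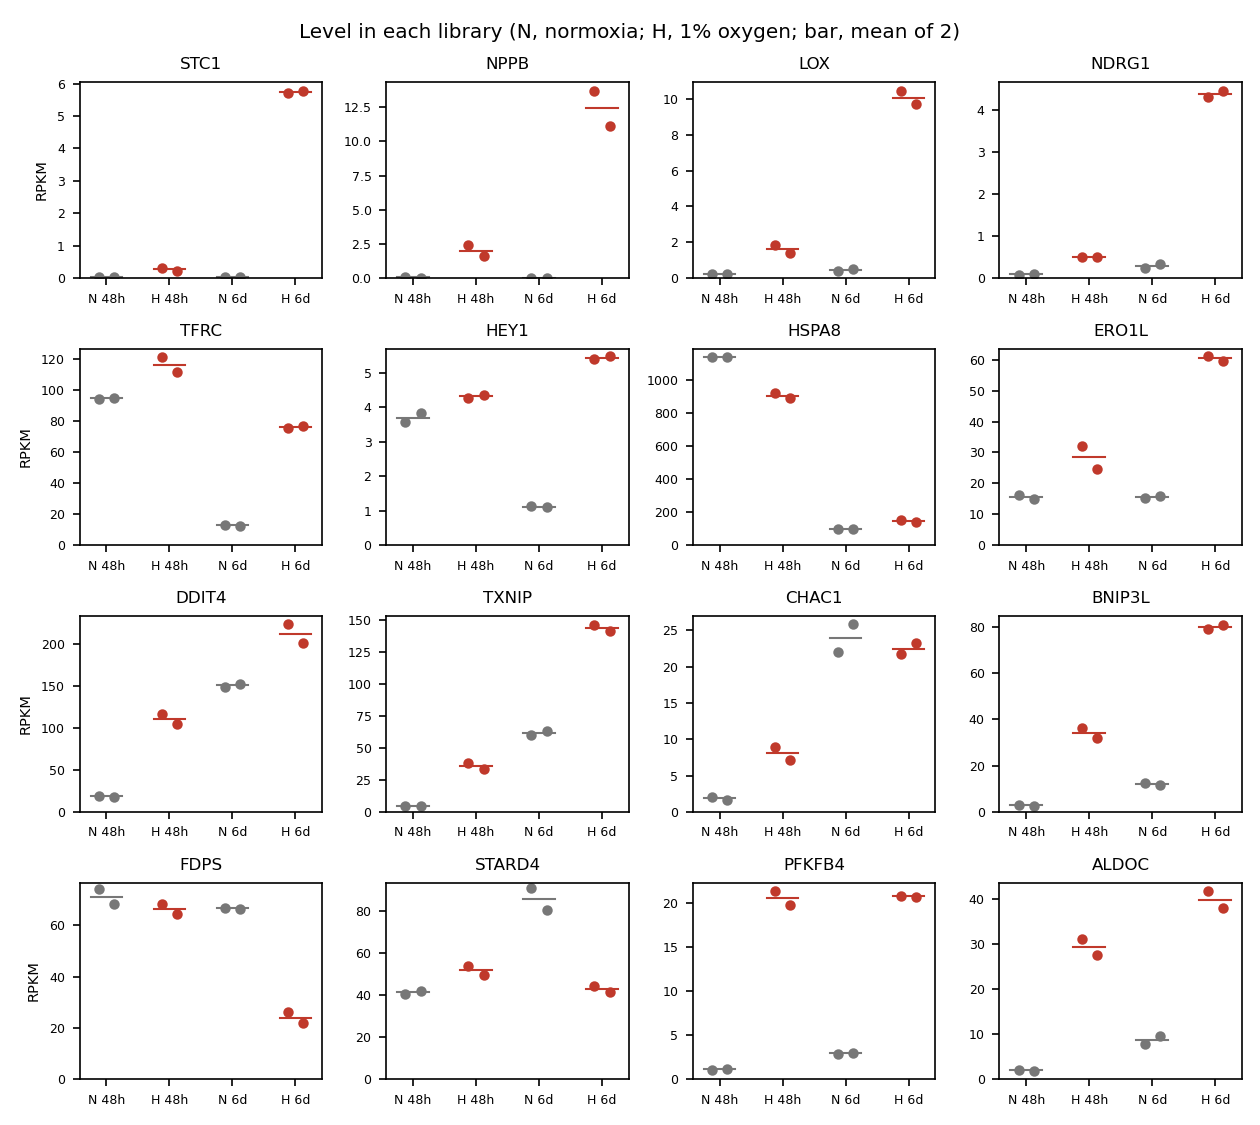
RPKM of 16 genes in each of the 8 libraries (grey, normoxia; red, 1% oxygen; horizontal bar, mean of 2 libraries), with a separate linear axis starting at 0 in each panel. STC1, NPPB, LOX and NDRG1 are high in the 6-day hypoxic libraries, TFRC and HEY1 are low in the 6-day normoxic libraries, and DDIT4, TXNIP and CHAC1 are above their 48 hr normoxic level in all other groups.

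The hypoxia response core, ACGTG or GCGTG, was present among both upward and downward targets. RefSeq promoter windows (GRCh38.p14, 250 bases before to 50 after the start, both strands searched) were matched for 16 of the 21 upward HIF targets, of which 13 held the core, and for 6 of the 8 downward ones, all 6 of which held it. Among all 9158 tested genes with a matched window, 71.9% held the core, so its presence is common in windows of this length. ADM and DDIT4 are shown because both are HIF targets and their interactions had opposite signs. The ADM window is chr11:10304823-10305122 on the plus strand and the DDIT4 window is chr10:72273674-72273973 on the plus strand, with the core in capitals.
ADM: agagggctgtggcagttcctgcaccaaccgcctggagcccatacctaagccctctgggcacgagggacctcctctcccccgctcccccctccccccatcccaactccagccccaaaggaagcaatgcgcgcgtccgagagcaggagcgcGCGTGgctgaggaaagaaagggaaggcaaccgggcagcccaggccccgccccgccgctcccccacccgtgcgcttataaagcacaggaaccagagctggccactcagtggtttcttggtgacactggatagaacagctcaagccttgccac
DDIT4: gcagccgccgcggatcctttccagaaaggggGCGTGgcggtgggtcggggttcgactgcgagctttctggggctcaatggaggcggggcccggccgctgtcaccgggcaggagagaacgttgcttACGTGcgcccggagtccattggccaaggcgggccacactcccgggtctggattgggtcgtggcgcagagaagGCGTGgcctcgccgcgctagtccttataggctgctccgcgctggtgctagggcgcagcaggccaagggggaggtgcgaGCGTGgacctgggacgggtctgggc
ADM held the core 1 time, at position -101 from the start, and DDIT4 held it 4 times, at -219, -125, -53 and 26. A match of letters does not show that a factor was bound.

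DDIT4, which encodes the mTORC1 inhibitor REDD1, had the lowest interaction among the named genes. At 48 hr it was at 19.3 and 18.3 RPKM in normoxia and 116 and 105 RPKM in hypoxia. At 6 days it was at 149 and 152 RPKM in normoxia and 224 and 201 RPKM in hypoxia. Normoxic cells at 6 days thus held more DDIT4 RNA than hypoxic cells at 48 hr, and the libraries of the 4 groups did not overlap. The effect went from 2.52 to 0.49 and the interaction was -2.03 ± 0.17 (limma adjusted p = 0.000284). TXNIP, an arrestin-like protein that limits glucose uptake, followed the same order. It was at 4.79 and 4.91 RPKM in normoxia and 37.9 and 33.4 RPKM in hypoxia at 48 hr, and at 60.4 and 63.3 RPKM and 146 and 141 RPKM at 6 days. Its interaction was -1.54 ± 0.20 (limma adjusted p = 0.00214). Its relative ARRDC4 had an interaction of -0.93 ± 0.14 (limma adjusted p = 0.0043), and SESN2, a sestrin that restrains mTORC1, one of -0.91 ± 0.12 (limma adjusted p = 0.00265). Of 23 genes in the list of TXNIP, sestrins and mTORC1 brakes, 5 were called downward (21.7%, against 5.31% of all genes) and 2, KLF10 and KLF11, upward, and the downward count was 5 without any 1 library.

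Of 43 genes of the ATF4 and integrated stress response, 19 were called higher in hypoxia at 48 hr, and at 6 days 9 were called higher and 13 lower. In the interaction, 19 of 43 were called downward and 0 upward (1 at an unadjusted p under 0.05) by limma, against 5.31% and 5.38% of all genes, with 11 to 13 downward when any 1 library was left out. The median effect of the list was 0.27 at 48 hr and -0.08 at 6 days, with a median interaction of -0.49. From 48 hr to 6 days 38 of the 43 genes rose in normoxia and 38 in hypoxia, with median changes of 1.39 and 0.98. The lists share genes, so their counts are not separate. Of the downward ATF4 calls, DDIT4, SESN2 and TSC22D3 were also counted among the TXNIP, sestrin and mTORC1 genes. DDIT4 and STC2 were also counted among the HIF targets, and ALDH1L2 and PHGDH in nucleotide and one-carbon synthesis.

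CHAC1, which degrades glutathione, was at 2.09 and 1.69 RPKM in normoxia and 8.91 and 7.20 RPKM in hypoxia at 48 hr. At 6 days normoxic libraries were at 22.0 and 25.8 RPKM and hypoxic ones at 21.7 and 23.2 RPKM. The groups were apart at 48 hr and overlapped at 6 days, and the interaction was -1.92 ± 0.18 (limma adjusted p = 0.000575). PCK2, the mitochondrial phosphoenolpyruvate carboxykinase, crossed over: hypoxic cells were higher at 48 hr, with 15.3 and 13.2 RPKM against 7.89 and 8.44 RPKM, and lower at 6 days, with 44.8 and 41.9 RPKM against 56.8 and 61.6 RPKM. Its interaction was -1.21 ± 0.17 (limma adjusted p = 0.00311). ALDH1L2, a mitochondrial folate enzyme, also crossed over, with effects of 0.38 and -0.80 and an interaction of -1.18 ± 0.13 (limma adjusted p = 0.00124).

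Further members, chosen after their values were seen, were DDIT3, TRIB3 and ASNS. DDIT3 encodes the stress transcription factor CHOP. It was at 3.78 and 4.32 RPKM in normoxia and 8.44 and 6.69 RPKM in hypoxia at 48 hr, and at 47.6 and 49.7 RPKM and 45.9 and 45.2 RPKM at 6 days, with an interaction of -0.91 ± 0.15 (limma adjusted p = 0.006). The pseudokinase gene TRIB3 had an interaction of -0.88 ± 0.16 (limma adjusted p = 0.00945). Asparagine synthetase (ASNS) was at 6.87 and 7.97 RPKM in normoxia and 11.8 and 10.9 RPKM in hypoxia at 48 hr, and at 76.7 and 65.1 RPKM and 44.1 and 49.9 RPKM at 6 days. Its interaction was -1.17 ± 0.30 (limma adjusted p = 0.0324), and the call was lost without any 1 of the 8 libraries (adjusted p up to 0.111).

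CHAC1 and ASNS are shown because a promoter window of each holds the amino acid response element searched for, TGATGNAA, to which ATF4 is known to bind. Another ASNS window, chr7:97872116-97872415, did not hold it. The CHAC1 window is chr15:40953221-40953520 on the plus strand. The ASNS window shown is chr7:97872359-97872658 on the minus strand (GRCh38.p14, RefSeq), and the element is in capitals in both.
CHAC1: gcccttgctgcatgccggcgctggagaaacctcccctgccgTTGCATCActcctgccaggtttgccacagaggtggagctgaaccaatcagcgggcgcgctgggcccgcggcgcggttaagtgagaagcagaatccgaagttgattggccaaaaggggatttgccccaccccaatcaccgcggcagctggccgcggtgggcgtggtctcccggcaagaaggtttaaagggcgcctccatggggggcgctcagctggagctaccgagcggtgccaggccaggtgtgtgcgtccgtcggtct
ASNS: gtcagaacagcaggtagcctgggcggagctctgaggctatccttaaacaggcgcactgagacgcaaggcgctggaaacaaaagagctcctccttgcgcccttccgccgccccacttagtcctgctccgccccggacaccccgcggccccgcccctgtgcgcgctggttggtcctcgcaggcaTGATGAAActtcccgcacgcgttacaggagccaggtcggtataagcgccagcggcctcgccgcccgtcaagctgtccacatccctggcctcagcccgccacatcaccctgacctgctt
The element in CHAC1 starts at position -209 and is read on the opposite strand, and that in ASNS starts at -68. It was found in 5 of the 16 downward genes of this list with a matched window (ASNS, ATF3, CHAC1, FGF21 and SLC1A4; 31.25%) and in 2.49% of the 9158 matched genes. These genes were listed for known regulation by ATF4, so the share describes the list and is no independent evidence.

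**Figure D3:**
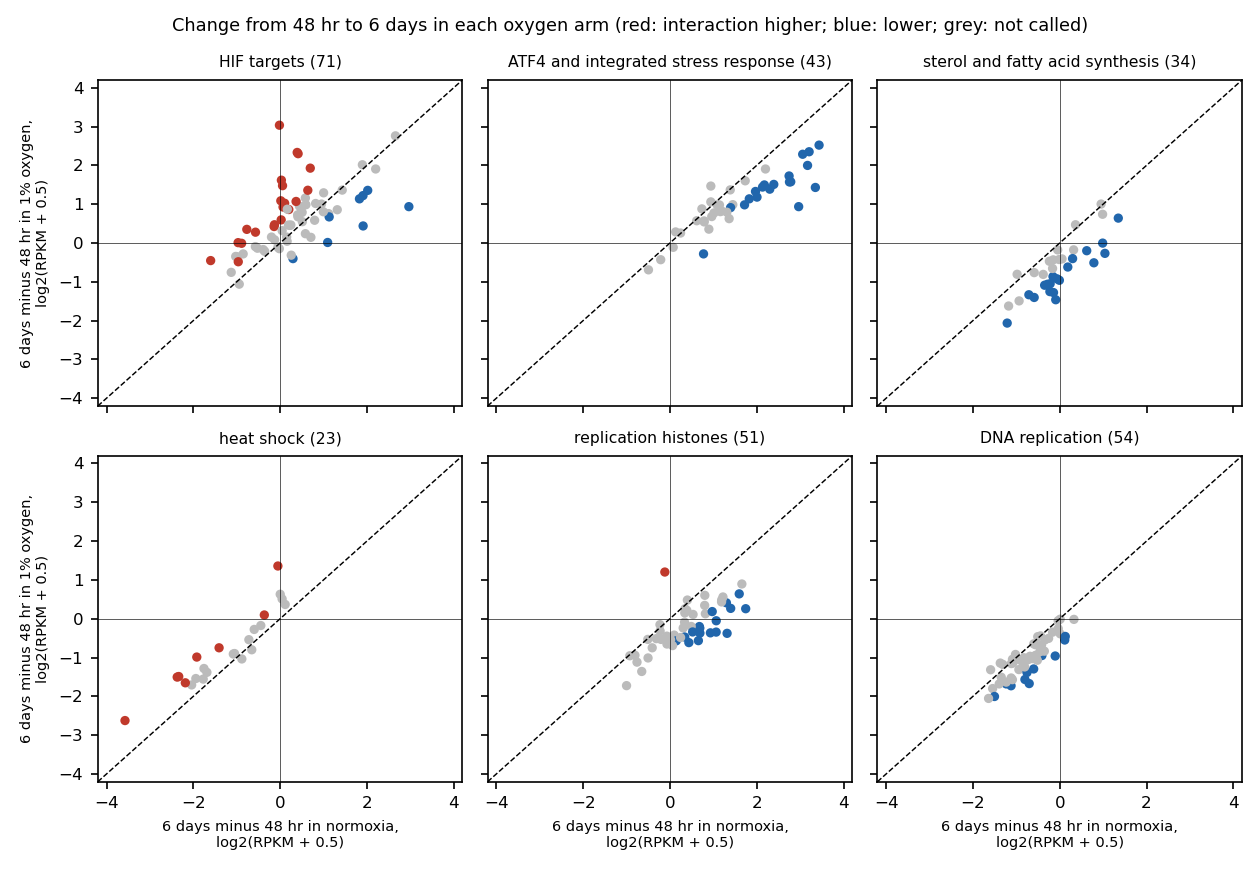
Change from 48 hr to 6 days in normoxia (horizontal axis) against the change in 1% oxygen (vertical axis), in log2(RPKM + 0.5), for the tested genes of 6 lists, with the dashed line at equal change. ATF4 genes lie to the right with the called ones below the line, sterol genes lie below the line with most called members falling in 1% oxygen, and most heat shock genes lie at lower left with the called ones above the line.

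Sterol and fatty acid synthesis had the largest share of downward calls among the lists plotted. Of 34 genes tested, 19 were called downward and 0 upward (also 0 at an unadjusted p under 0.05) by limma, against 5.31% downward among all genes, with 13 to 17 downward when any 1 library was left out. The median effect was 0.09 at 48 hr and -0.64 at 6 days, and the median interaction was -0.70. At 48 hr 6 of the 34 were called higher in hypoxia and 1 lower, and at 6 days 2 were called higher and 26 lower. In this list the change lay mainly in the hypoxic cells, in which 26 of 34 genes fell with time and the median change was -0.71. In normoxia 9 fell and 9 rose, with a median change of -0.12.

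FDPS, farnesyl diphosphate synthase of the mevalonate pathway, was at 74.2 and 68.2 RPKM in normoxia and 68.2 and 64.6 RPKM in hypoxia at 48 hr. Normoxia at 6 days gave 67.0 and 66.4 RPKM, and hypoxia gave 26.0 and 21.7 RPKM. Only the 6-day hypoxic libraries were low, and the interaction was -1.37 ± 0.19 (limma adjusted p = 0.00265). STARD4, a cholesterol carrier, differed in form: it rose in normoxia from 40.7 and 42.1 RPKM to 91.2 and 80.6 RPKM, while hypoxic libraries fell from 54.1 and 49.5 RPKM to 44.1 and 41.7 RPKM. Its interaction was -1.31 ± 0.15 (limma adjusted p = 0.00124). TM7SF2, a sterol reductase, and FADS2, a fatty acid desaturase, had called effects of opposite sign at the times. FADS2 was at 29.9 and 28.8 RPKM in normoxia and 43.1 and 40.4 RPKM in hypoxia at 48 hr, and at 25 and 28.1 RPKM and 17.7 and 16.1 RPKM at 6 days, with an interaction of -1.13 ± 0.18 (limma adjusted p = 0.00538).

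Further members of the list, chosen after their values were seen, included regulators of the pathway. INSIG1, which holds SREBP in the endoplasmic reticulum and is also a HIF target, had effects of 0.60 and -0.10 and an interaction of -0.70 ± 0.11 (limma adjusted p = 0.00527). SREBF2, which encodes the sterol-responsive factor SREBP2, had an interaction of -0.99 ± 0.21 (limma adjusted p = 0.017), a call that was lost under 7 alternatives (adjusted p up to 0.0771). The sterol response element as searched, TCACNCCAC, was in the window of 1 of 16 matched downward genes, SREBF2, and in 1.46% of all matched genes.

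Most heat shock genes fell with time: 19 of 23 tested fell from 48 hr to 6 days in normoxia, and 16 fell and 4 rose in hypoxia. In the interaction, 8 were called upward, 15 were not called and 0 downward (also 0 at an unadjusted p under 0.05) by limma, against 5.38% upward among all genes, with 3 to 4 upward when any 1 library was left out. Among the 8, HSPB8 reached 1 RPKM in the 6-day hypoxic libraries alone. The median effect was -0.0039 at 48 hr and 0.29 at 6 days, and the median interaction was 0.40.

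HSPA8, the constitutive HSC70 chaperone, was at 1141 and 1141 RPKM in normoxia and 922 and 892 RPKM in hypoxia at 48 hr. At 6 days it had fallen to 93.7 and 96.9 RPKM in normoxia and 154 and 139 RPKM in hypoxia. Hypoxic libraries were thus the lower at 48 hr and the higher at 6 days, with an interaction of 0.95 ± 0.22 (limma adjusted p = 0.0239), although the 48 hr effect did not pass and the interaction call was lost without any 1 of the 8 libraries (adjusted p up to 0.093). DNAJB1, an HSP40 co-chaperone, gave a firmer call. It was at 29.7 and 32.1 RPKM in normoxia and 36.7 and 36.9 RPKM in hypoxia at 48 hr, and at 7.99 and 7.60 RPKM and 19.2 and 17.4 RPKM at 6 days, with an interaction of 0.93 ± 0.14 (limma adjusted p = 0.00393). HSPA1A and HSPA1B, the stress-inducible HSP70 genes, are near-identical copies between which reads may be split, so their separate values are uncertain. HSPA1A had an interaction of 0.87 (limma adjusted p = 0.0188), lost under 7 alternatives, and HSPA1B one of 0.85 (limma adjusted p = 0.00603).

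HSPA8 and HSPA1A are shown as chaperones with a heat shock element, searched for as GAANNTTC, in the promoter window. The HSPA8 window is chr11:123062087-123062386 on the minus strand and the HSPA1A window is chr6:31815293-31815592 on the plus strand (GRCh38.p14, RefSeq), with the element in capitals.
HSPA8: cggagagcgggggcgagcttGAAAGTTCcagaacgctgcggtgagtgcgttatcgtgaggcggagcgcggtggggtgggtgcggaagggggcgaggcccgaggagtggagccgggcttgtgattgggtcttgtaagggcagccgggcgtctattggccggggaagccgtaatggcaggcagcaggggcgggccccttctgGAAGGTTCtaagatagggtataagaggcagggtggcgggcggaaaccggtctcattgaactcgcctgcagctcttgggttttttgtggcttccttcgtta
HSPA1A: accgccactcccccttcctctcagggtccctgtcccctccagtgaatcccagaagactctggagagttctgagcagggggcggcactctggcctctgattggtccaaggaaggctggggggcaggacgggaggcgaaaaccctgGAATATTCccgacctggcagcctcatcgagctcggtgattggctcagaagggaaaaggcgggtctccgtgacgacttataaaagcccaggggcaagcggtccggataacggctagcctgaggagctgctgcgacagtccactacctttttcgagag
HSPA8 held the element 2 times, at positions -230 and -50, and HSPA1A held it 1 time, at -106. It was found in 5 of the 7 upward chaperone genes with a matched window (DNAJB1, HSPA1A, HSPA1B, HSPA8 and HSPB8; 71.4%) and in 6.32% of all 9158 matched genes. These genes too were listed for known regulation, here by HSF1.

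Of 31 genes of the unfolded protein response of the endoplasmic reticulum, 24 were not called and the median interaction was 0.13. The 6 upward calls (19.4%, against 5.38% of all genes) were ERO1L, CANX, HSPA5, PDIA3, HSP90B1 and DNAJC3, and CRELD2 was called downward, with 2 to 3 upward when any 1 library was left out. CANX, the lectin chaperone calnexin, was at 58.0 and 58.2 RPKM in normoxia and 59.8 and 59.3 RPKM in hypoxia at 48 hr, and at 48.3 and 46.4 RPKM and 89.6 and 90.4 RPKM at 6 days. It fell in normoxia and rose in hypoxia, with an interaction of 0.88 ± 0.12 (limma adjusted p = 0.00265). HSPA5, the chaperone BiP, was at 89.2 to 102 RPKM in the 6 other libraries and at 153 and 149 RPKM in hypoxia at 6 days, an interaction of 0.65 ± 0.17 (limma adjusted p = 0.0315) that was lost under 7 alternatives (adjusted p up to 0.129).

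TFRC encodes the transferrin receptor, through which cells take up iron, and its interaction came mainly from a fall in normoxia. At 48 hr it was at 94.6 and 95.3 RPKM in normoxia and 122 and 112 RPKM in hypoxia, and at 6 days at 13.2 and 12.5 RPKM in normoxia and 75.8 and 76.6 RPKM in hypoxia. It fell by 2.84 on the log2 scale in normoxia and by 0.61 in hypoxia, an interaction of 2.23 ± 0.16 (limma adjusted p = 7.06e-05). Heme oxygenase HMOX1 and the iron exporter SLC40A1 were the other upward calls among 21 iron genes (3 in all, 14.3%, against 5.38% of all genes), 0 of which were called downward by limma (3 at an unadjusted p under 0.05), and both calls were lost under several alternatives, with adjusted p up to 0.0664 and 0.118. HEY1, a Notch target, also fell in normoxia. It was at 3.56 and 3.84 RPKM in normoxia and 4.28 and 4.37 RPKM in hypoxia at 48 hr, and at 1.12 and 1.09 RPKM and 5.39 and 5.49 RPKM at 6 days, with an interaction of 1.69 ± 0.12 (limma adjusted p = 7.06e-05). ID2, an inhibitor of helix-loop-helix factors, was at 30.8 to 35.7 RPKM in all 48 hr libraries, at 12.8 and 13.3 RPKM in normoxia at 6 days and at 40.4 and 34.9 RPKM in hypoxia, with an interaction of 1.51 ± 0.16 (limma adjusted p = 0.000911).

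Of 54 DNA replication genes tested, 11 were called downward (20.4%, against 5.31% of all genes), 43 were not called and 0 were upward (also 0 at an unadjusted p under 0.05) by limma. The median interaction was -0.31, but with any 1 library left out 0 to 4 were called downward. With time, 43 of 54 fell in normoxia and 50 in hypoxia, with median changes of -0.71 and -1.04. MCM7, a subunit of the replicative helicase, was at 78.9 and 75.6 RPKM in normoxia and 68.9 and 68.7 RPKM in hypoxia at 48 hr, and at 43.3 and 44.9 RPKM and 24.0 and 21.9 RPKM at 6 days. Its interaction was -0.76 ± 0.18 (limma adjusted p = 0.0231), lost under 8 alternatives (adjusted p up to 0.0831).

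Of 34 genes of nucleotide and one-carbon synthesis, 7 were called downward (20.6%, against 5.31% of all genes), 27 were not called and 0 were upward (2 at an unadjusted p under 0.05) by limma, with 6 to 7 downward without any 1 library. RRM2, the small subunit of ribonucleotide reductase, was at 87.5 and 96.9 RPKM in normoxia and 88.4 and 85.1 RPKM in hypoxia at 48 hr. It was at 37.9 and 34.2 RPKM in normoxia and 17.5 and 18.6 RPKM in hypoxia at 6 days, an interaction of -0.90 ± 0.17 (limma adjusted p = 0.0108). PFAS, an enzyme of purine synthesis, had an interaction of -1.02 ± 0.15 (limma adjusted p = 0.00393), and CTPS, which makes cytidine nucleotides, one of -0.75 ± 0.11 (limma adjusted p = 0.0043). Of 66 mitotic genes, 2 were called downward (3.03%) and 0 upward (6 at an unadjusted p under 0.05) by limma, against 5.31% and 5.38% of all genes. The median interaction of this list was 0.0045. Its downward calls, KIF18A and SMC4, were lost without any 1 of the 8 libraries. The difference between the replication and mitosis lists was not tested.

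Replication-dependent histone genes, whose messages carry no poly(A) tail and are measured here because libraries were made from ribosome-depleted total RNA, had 17 of 51 tested genes called downward (33.3%, against 5.31% of all genes) and 1, HIST1H4D, upward, which reached 1 RPKM in the 6-day hypoxic libraries alone. The median effect was -0.12 at 48 hr and -0.71 at 6 days. From 48 hr to 6 days 25 histone genes rose and 7 fell in normoxia, with a median change of 0.39, and 6 rose and 19 fell in hypoxia, with a median change of -0.32. HIST1H4I was at 6.58 and 6.04 RPKM in normoxia and 7.03 and 6.19 RPKM in hypoxia at 48 hr, and at 17.8 and 15.2 RPKM and 6.52 and 3.76 RPKM at 6 days, with an interaction of -1.69 ± 0.29 (limma adjusted p = 0.00671). Only the 6-day normoxic libraries were high. Histone genes share sequence with near-identical copies, so single genes are uncertain, and the downward count was 2 to 14 when any 1 library was left out.

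Of 38 genes of respiratory complex I, 5 were called downward (13.2%), and of 76 mitochondrial ribosomal proteins 8 (10.5%), against 5.31% of all genes, with 0 upward in each by limma (2 and 1 at an unadjusted p under 0.05). Without any 1 library 0 to 2 and 1 to 3 were called downward. MRPL24, a protein of the large mitochondrial ribosomal subunit, was at 34.3 and 29.8 RPKM in normoxia and 29.9 and 29.1 RPKM in hypoxia at 48 hr. At 6 days it was at 39.9 and 38.0 RPKM in normoxia and 17.9 and 16.5 RPKM in hypoxia, an interaction of -1.04 ± 0.16 (limma adjusted p = 0.00498). Of 41 genes of respiratory complexes II to V, ATP5D, COX8A and SDHA were called downward (7.32%) and CYCS and SDHD upward (4.88%). Of 26 genes of the tricarboxylic acid cycle, OGDHL and SDHA were downward (7.69%) and SDHD upward (3.85%). The shares of these lists were near the 5.31% and 5.38% of all genes. The calls of SDHA and SDHD were lost without any 1 of the 8 libraries, and that of OGDHL under 6 alternatives. ATP5D, a subunit of ATP synthase, had an interaction of -0.96 ± 0.18 (limma adjusted p = 0.00957), and COX8A, a subunit of cytochrome oxidase, one of -0.91 ± 0.14 (limma adjusted p = 0.00393) with called effects of 0.38 at 48 hr and -0.53 at 6 days. CYCS, cytochrome c, had an interaction of 0.67. Among 80 cytosolic ribosomal proteins and 36 proteasome genes 0 were called in either direction by limma, with medians of 0.05 and -0.05. At an unadjusted p under 0.05, 0 ribosomal genes were upward and 1 downward, and 2 proteasome genes were upward and 3 downward.

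**Figure D4:**
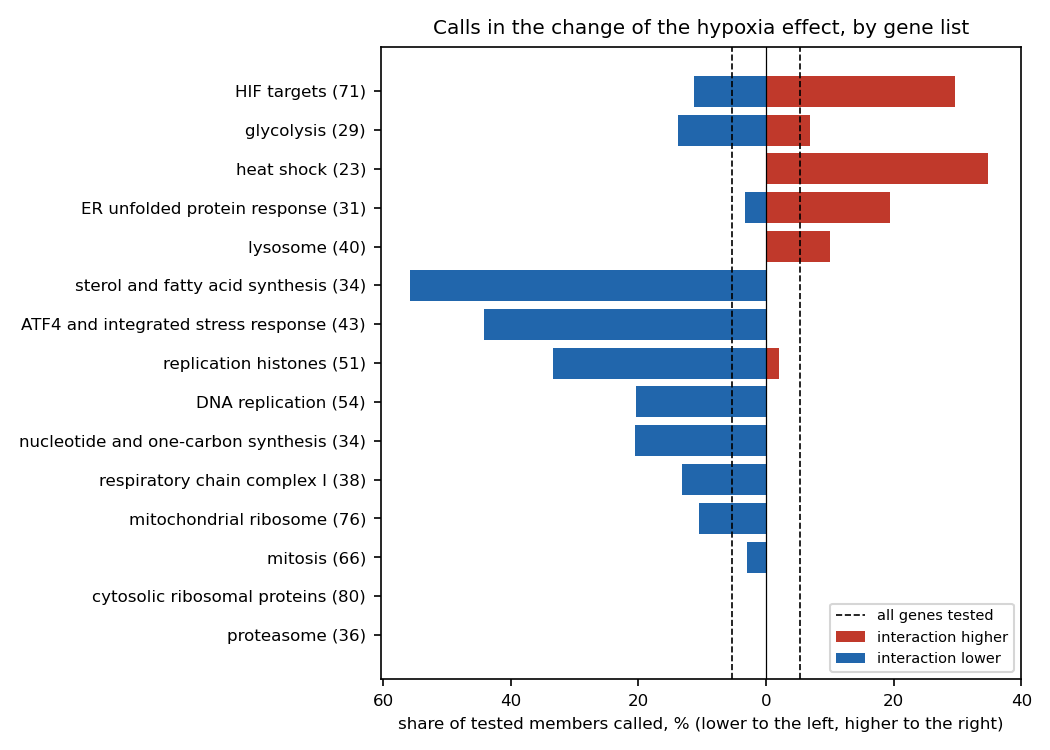
Share of the tested genes of 15 lists called in the interaction, in percent, with upward calls to the right in red, downward calls to the left in blue, and dashed lines at the share of all genes tested. Sterol genes (19 of 34), ATF4 genes (19 of 43) and replication histones (17 of 51) extend furthest to the left, and heat shock genes (8 of 23) and HIF targets (21 of 71) furthest to the right.

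A set of genes reversed, with called effects of opposite sign at the times. LIF, the cytokine leukemia inhibitory factor, was higher in hypoxia at 48 hr, at 8.69 and 8.27 RPKM against 3.89 and 3.85 RPKM, and lower at 6 days, at 11.3 and 11.5 RPKM against 13.7 and 13.8 RPKM. ARHGAP4, a GTPase-activating protein, was at 5.36 and 6.17 RPKM in hypoxia against 3.36 and 2.65 RPKM in normoxia at 48 hr, and at 3.80 and 3.45 RPKM against 5.82 and 6.52 RPKM at 6 days. In the other direction TMEM38B, a subunit of an intracellular cation channel, was lower in hypoxia at 48 hr, at 11.6 and 10.7 RPKM against 14.1 and 15.1 RPKM, and higher at 6 days, at 19.8 and 18.3 RPKM against 12.4 and 13.1 RPKM. In each of these genes the hypoxic and normoxic libraries did not overlap at either time. They were picked because both effects passed, so this separation is no added evidence.

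Libraries of one group agreed closely, with Pearson correlations of 0.993 to 0.995 across genes and a median absolute difference of 0.0886 to 0.107 log2 units. Gene values carry no counts. If gene and precursor microRNA columns of the same library number come from the same reads, which was not tested, low precursor values imply totals per library of 25.2 to 46.3 M reads. The line's labelled epithelial origin was checked against markers. EPCAM was at 33.2 to 42.2 RPKM and KRT18 at 23.7 to 32.5 RPKM in the 8 libraries, but 9 of 17 listed epithelial ovarian markers, CDH1, KRT7, PAX8 and MUC16 among them, were under 0.1 RPKM in every library. Fibroblast-associated genes summed to 148 to 155 RPKM in normoxia and 233 in hypoxia at 48 hr, and to 67.8 to 72.1 and 95.8 to 99.3 RPKM at 6 days. Of the 6 tested, 0 were called in the interaction by limma and 0 had an unadjusted p under 0.05, and their part in the results was not tested. Endothelial, macrophage and lymphocyte markers summed to at most 2.59, 2.02 and 1.59 RPKM in any library. In total RNA from a culture, fewer cells of a kind and less RNA per cell cannot be told apart.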

How the data were processed

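Total RNA of A2780 cells was depleted of ribosomal RNA, sequenced with the SOLiD Total RNA-Seq kit and read for 75 bases, per the labels' protocols. The authors deposited RPKM values, 1 column per library and 1 row per gene symbol (22446 symbols), and RPKM values of precursor microRNAs, used here only to infer depth. Partek 6.6 and genome build hg19 are named in the submitters' processing notes without their roles. The aligner, the gene models and the reads in the RPKM denominator remain not given in the sources used here. These choices set every level, and no count test could be made because gene values carry no counts.

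Genes were kept (11933) if 2 or more of the 12 libraries reached 1 RPKM. Values were transformed as log2(RPKM + 0.5), and limma 3.58.1 (R 4.3.3) was fitted with 6 group means over all 12 libraries, which share an estimate of the spread, with 6 residual degrees of freedom and an intensity trend. Tests were two-sided, p-values were adjusted by Benjamini-Hochberg over all genes tested, and the threshold was 0.05. A fold on this scale understates the change of genes with low levels. Errors are standard errors (SE) of the fit, and intervals are 95% and unadjusted.

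Gene lists and the contrast were chosen with earlier results of these data known. Named genes are the 12 highest and 12 lowest interactions among called genes (at least 2 RPKM in the highest group, hypoxia differences not overlapping between times, short non-coding RNAs, SNAR and MTRNR2L apart), up to 4 called members of each of the 50 lists, 12 well-known hypoxia genes, the 4 largest of each response pattern and the 5 highest and lowest reversed genes. Others were chosen after their values were seen, as the text says. Gene symbols are those of the deposited table, several of them older names (ERO1L, CTPS, LEPREL1). Promoter sequences are RefSeq windows on GRCh38.p14, another build than that of the notes, matched by symbol, and motifs were searched on both strands. Alternatives were pseudocounts of 0.1 and 1, no filter, a filter of 5 RPKM, quantile normalization, trimmed-mean centring, the 8 libraries alone, no intensity trend and leaving out each library.

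Library totals, which assume that gene and precursor columns of the same number come from the same reads, were inferred from low precursor values, which lie on steps set by precursor length. Of these values up to 20 reads, 96.5 to 99.3% came within 0.05 of whole reads, with a length for 707 of 939 precursors. A few genes are not reported here.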

Additional observations from a re-analysis of the deposited data

Results flagged for a closer look

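These 10 named genes had hypoxia effects that passed the limma test at 48 hr and at 6 days with opposite signs, and the interaction is itself the test of that difference. Downward reversals were ARHGAP4 (interaction -1.54), HBQ1 (-1.50), NEDD8-MDP1 (-1.48), TM7SF2 (-1.30) and LIF (-1.29). Upward reversals were TMEM38B (0.94), TMX4 (0.88), SFT2D2 (0.83), EIF5A2 (0.69) and RCHY1 (0.67). The calls of EIF5A2 and RCHY1 were lost without library 8, and also without library 9 and library 10 respectively, with adjusted p up to 0.0663 and 0.0637. The other 8 genes were called under every alternative that tested them. NEDD8-MDP1 is a read-through transcript of neighbouring genes, so its reads cannot be told apart from theirs. Groups of 2 libraries are too small for a check of single outlying libraries.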

How the results depend on the processing

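Counts of calls depended on the processing more than directions did. The interaction counts of 642 upward and 634 downward became 1196 and 1283 after quantile normalization and 1198 and 1186 when the 8 libraries were fitted alone, and the upward count became 414 with a filter of 5 RPKM, which tests fewer genes (7742). The cause of the first 2 changes was not tested. Leaving out 1 library gave 160 to 303 upward and 205 to 346 downward calls, from fewer samples, and the lone library left in a group was assumed to vary like the other groups. Without a filter, 827 genes were upward and 451 downward, an upward share of 64.7% against 50.3%. Of 138 named and called genes, 61 passed under every alternative that tested them, since some low-level genes were not tested under all. The call was lost under at least 1 alternative for 77, 35 of them only without a library, and 0 changed sign. No paired analysis was possible because the groups compared share no library number. Groups of 2 libraries limit the precision of every value, and genes under about 1 RPKM depend most on the pseudocount.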

Other observations

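Other groups had few calls but include genes with clear levels. Of 40 lysosomal genes, 4 were called upward (10.0%, against 5.38% of all genes) and 0 downward by limma (1 at an unadjusted p under 0.05), with 1 to 5 upward when any 1 library was left out. ATP6V0E1, a subunit of the proton pump, was at 33.3 to 37.5 RPKM in the 48 hr libraries, at 17.3 and 18.2 RPKM in normoxia at 6 days and at 31.2 and 37.0 RPKM in hypoxia, an interaction of 0.90 ± 0.16 (limma adjusted p = 0.00761). PRDX4, a peroxiredoxin of the endoplasmic reticulum, was at 34.4 to 38.4 RPKM in 6 libraries and at 20.8 and 14.9 RPKM in normoxia at 6 days, an interaction of 1.00 ± 0.19 (limma adjusted p = 0.0101). The long non-coding RNA NEAT1, the scaffold of paraspeckles, rose from 10.5 and 10.1 RPKM to 41.4 and 41.2 RPKM in normoxia and from 29.8 and 29.0 RPKM to 43.1 and 47.4 RPKM in hypoxia. Its interaction was -1.34 ± 0.15 (limma adjusted p = 0.00124), and its 6-day effect of 0.13 did not pass.

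Commonly used reference genes were not exempt: among the 16 tested, TFRC was called upward and SDHA was called downward. IFI35, an interferon-induced gene, was at 6.17 and 6.42 RPKM in normoxia at 6 days and at 1.54 to 2.41 RPKM in the other 6 libraries, an interaction of -1.44 ± 0.23 (limma adjusted p = 0.00527). The humanin-like MTRNR2L genes had 0 of 10 calls by limma (1 at an unadjusted p under 0.05), all with negative interaction values and a median of -0.53. These genes are near copies of mitochondrial ribosomal RNA, so their separate values are uncertain. Among 532 tested rows of short non-coding RNA, SNAR and MTRNR2L genes together, 24 were called upward (4.51%) and 4 downward (0.752%). These shares were below the 5.38% and 5.31% of all genes.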
